A study of Caenorhabditis elegans with 9 samples.

Results

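The transcriptome described here is that of wild-type Caenorhabditis elegans embryos (strain N2) collected after heat shock. It rests on 3 mRNA-seq libraries, the ones whose labels name the wild-type genotype, out of 9 libraries in the series. Asynchronous parents were held at 35°C for 30 min and recovered at room temperature for 2 h, and the mixed-stage embryos were then freed from the adults by bleaching. Polyadenylated RNA was made into strand-marking libraries. In the study these embryos served as the reference for strains that express tagged DPY-27, the SMC subunit of the dosage compensation condensin. Only the wild-type libraries are used below, and wild type grown without heat shock is not analysed here, so no value is a response to heat. The labels number the replicates from 1 to 3 without saying that they came from separate cultures, and the spread given below may in part be technical.

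A mixed population of worm embryos holds mRNA of more than one origin. Oocytes load the egg with maternal messages, which are degraded as the zygotic genome is switched on, and later embryos transcribe the genes of muscle, nerve, gut and cuticle before hatching. Heat shock makes most animal cells transcribe chaperone genes through the factor HSF-1. In hermaphrodites the dosage compensation complex, of which DPY-27 is part, lowers transcription of both X chromosomes.

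The libraries held 23536013, 17107945 and 21950907 reads on genes in replicates 1, 2 and 3. Abundance is given as TPM, the length-corrected share of each gene in the mRNA pool, scaled to the same total in every library, for 20388 genes. A gene was called expressed when it had at least 1 TPM in every library. Replicate 1 stood apart at the low end of the range. It had 507 genes with no read, against 3054 in replicate 2 and 2923 in replicate 3. Of the 2059 genes with no read in both other libraries, 1628 had reads in replicate 1, with a median count of 3 and a maximum of 28 over all 2059. The reverse held for 25 of 456 such genes in replicate 2 and for 37 of 468 in replicate 3. No pair of libraries agreed within counting noise: after scaling, the mean chi-square per gene was 12.2 to 24.4 over 12818 genes, where counting noise gives about 1. Reads on no annotated feature made up 46.3% ± 0.492 of all listed reads (SD, n = 3) and are not part of any value below.

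In all, 11975 genes (58.7%) were expressed. Single libraries had 12884, 12533 and 12329 genes at or above 1 TPM in replicates 1 to 3, and 13238 genes reached it in at least 1 of them. The median expressed gene had 21.1 TPM. Among the expressed genes 4764 (39.8%) carried a sequence name and no gene name. Leaving replicate 1 out gave 12051 expressed genes.

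A small number of genes supplied most of the pool. Genes at 1000 TPM or more numbered 166, 161 and 165 in the 3 replicates and held 38.3% ± 1.01 of all TPM (SD, n = 3). A further 1504, 1430 and 1460 genes between 100 and 1000 TPM held 35.9% ± 0.608. The 6572, 6562 and 6514 genes between 10 and 100 TPM, the largest of the expressed classes, held 23.8% ± 0.364, and those between 1 and 10 TPM held 1.86% ± 0.0673. It took 375, 323 and 335 genes to reach 50% of the TPM. The 100 most abundant genes took 29.6%, 31.7% and 30.8% of it, a mean of 30.7% ± 1.07. The ranking was alike between libraries: 24 of the 25 most abundant genes, 89 of the 100 most abundant and 902 of the 1000 most abundant were common to all 3 libraries. Spearman correlations across the expressed genes, which are not independent of each other, were 0.988 for replicates 1 and 2, 0.989 for 1 and 3, and 0.980 for 2 and 3.

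The most abundant mRNA was rpl-29, which encodes a protein of the large ribosomal subunit (chromosome IV, 13882169 to 13882638 on WS220). It had 22145, 25161 and 19526 TPM in replicates 1 to 3, or 2.23% ± 0.282 of the pool (SD, n = 3). It ranked in first place in each library. Next came rps-29, for the small subunit (chromosome III, 794289 to 795072), with 15705, 17838 and 17747 TPM. In both genes replicate 2 was the highest. Of the 25 most abundant genes 9 encoded cytosolic ribosomal proteins: rpl-29, rps-29, rpl-36, rpl-38, rpl-39, rps-28, rpl-34, rpl-43 and rpl-18. The lowest of these, rpl-18, had 3079, 3295 and 3169.6 TPM.

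Cuticle collagens formed another group at the top. The gene sqt-3, a collagen of the first cuticle (chromosome V, 12352975 to 12354295), had 6033, 6375 and 5361 TPM and ranked in seventh place. The collagen gene dpy-17 had 4396, 5007 and 4518 TPM. The collagen gene dpy-14 was the most abundant gene of chromosome I, with 3485, 4187 and 3484 TPM. All 3 collagens were highest in replicate 2.

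Chromatin proteins made up 4 of the 25. The gene hil-7, which encodes a linker histone-like protein, averaged 4247 ± 394 TPM (SD, n = 3), and hmg-1.1, for a high mobility group protein, 4242 ± 268 TPM. The linker histone H1 gene his-24, the most abundant gene of the X chromosome, had 3871, 4104 and 4030.2 TPM. The histone H3.3 gene his-72 averaged 3504 ± 360 TPM.

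Other leading genes came from several functions. Y82E9BR.3, which encodes subunit c of the mitochondrial ATP synthase, had 8566, 8549 and 11102 TPM, with replicate 3 the highest. The aquaporin gene aqp-2 led chromosome II with 4868, 4685 and 4106 TPM. The translation elongation factor gene eef-1A.1 averaged 3958 ± 328 TPM and the C-type lectin gene clec-266 averaged 3792 ± 309 TPM. The remaining named gene, dao-2, had 4477, 4291 and 3880.2 TPM. On the mitochondrial genome COX3, for subunit III of cytochrome oxidase, was the most abundant at 551, 607 and 539 TPM.

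Besides Y82E9BR.3, 4 of the 8 most abundant genes carried no gene name: F13H10.8, C02E7.6, C02E7.7 and F41F3.3. C02E7.6 (chromosome V, 4919193 to 4919567, + strand) and C02E7.7 (chromosome V, 4918140 to 4918571, - strand) lie beside each other in opposite orientation. C02E7.6 had 7325, 8881 and 8628 TPM and C02E7.7 had 7295, 6108 and 7160.2 TPM. Replicate 2 was the highest for C02E7.6 and the lowest for C02E7.7. F41F3.3, also on chromosome V, had 4442, 5546 and 5815 TPM.

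**Figure D1:**
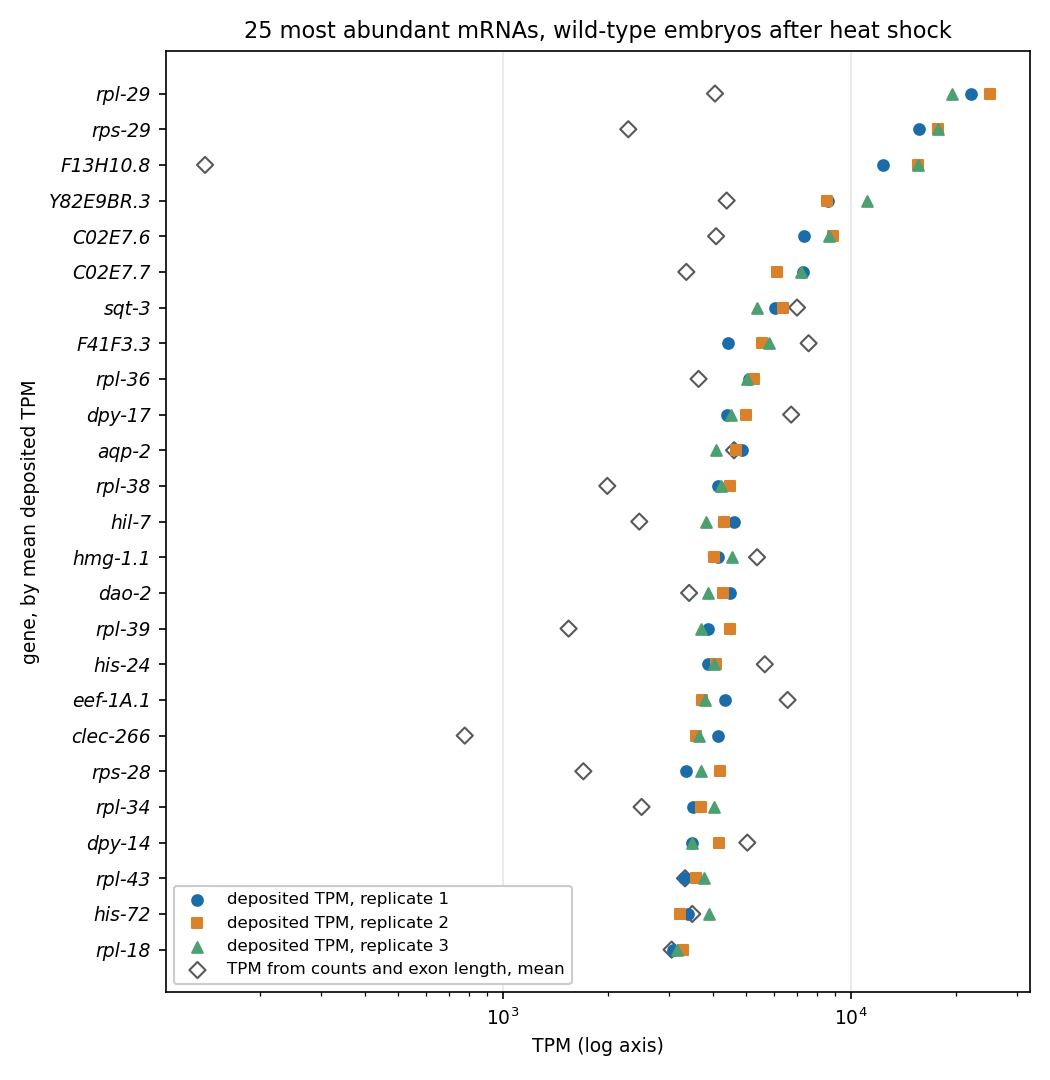
The 25 most abundant genes by deposited TPM (log axis). Filled points are the 3 replicates and open diamonds are the mean TPM recomputed from read counts and exon length: rpl-29 stands at 19526 to 25161 TPM in the libraries and at 4066 TPM when recomputed, and F13H10.8 shows the widest gap.

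The order depended on how abundance was computed. Deposited TPM and a TPM recomputed from the deposited read counts and the summed exon length had a Spearman correlation of 0.947 over 11663 expressed genes, and 17 of the 25 and 77 of the 100 most abundant genes were the same. By counts the order began with F41F3.3 (7553 TPM), sqt-3 (6996 TPM), dpy-17 (6729 TPM) and eef-1A.1 (6573 TPM). By counts rpl-29 had 4066 TPM and rank 11, and rps-29 had 2291 TPM and rank 33. Short genes had the higher values in the deposited table: the median log2 ratio of deposited to recomputed TPM was 0.71 for genes of 200 to 300 exonic bases and -0.53 for genes of 2000 or more. The 100 most abundant genes had a median exon length of 587 bases, against 1405 bases for all expressed genes.

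For a few abundant genes the deposited TPM was far above the value recomputed from counts. F13H10.8 (chromosome IV, 11020461 to 11021265) had 12343, 15605 and 15564 deposited TPM in replicates 1 to 3 but 1479, 922 and 1372 reads. Recomputed, its mean was 139 TPM against 14504 TPM deposited. Its whole span of 805 bases overlaps mogs-1 on the opposite strand, which had 992, 565 and 1033 reads. The other genes of the 100 most abundant with the largest gaps were dph-3 (1888 deposited and 90.1 recomputed TPM), Y17G9B.2 (1665 and 130.2), C05G5.7 (1579 and 84.9) and rps-29. clec-266 overlaps kqt-1 on the opposite strand by 3871 bases and had 3792 deposited and 776 recomputed TPM. These levels are uncertain. Deposited TPM was above 0 with no read in the counts for 360 genes, 110 of them among the expressed genes.

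Cytosolic ribosomal protein genes held the largest share of TPM among the families listed. Of 80 genes 79 were expressed, with a median of 1571 TPM, and 47 were among the 100 most abundant genes. Together they held 16.39%, 18.3% and 16.8% of TPM, a mean of 17.2% ± 1.01 (SD, n = 3). On the recomputed TPM the share was 11.7%, and as a share of reads with no length correction it was 4.52%. Mitochondrial ribosomal protein genes were all 69 expressed and held 0.349% ± 0.00285 of TPM, with a median of 40.5 TPM.

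Most members of other housekeeping families were expressed. Histone genes held 2.04% ± 0.0637 of TPM, and of 79 genes 76 were expressed. The median of the 76 was 9.96 TPM, and 27 of them had no read in the counts, so that number is uncertain. The libraries were made from polyadenylated RNA, so any histone mRNA without a poly(A) tail is not covered by this share. The nuclear genes of the respiratory chain and ATP synthase that were listed by gene name held 1.68% ± 0.0947, with 38 of 39 expressed. Of those listed, cox-6C, a cytochrome oxidase subunit, was the highest at 2079.5, 2535 and 2673 TPM. The list leaves out the ATP synthase gene Y82E9BR.3, which carries no gene name and averaged 9406 TPM, so the share is too low for this function. Translation factors held 1.16% ± 0.0553 with all 38 expressed. Sm and SR splicing proteins held 0.846% ± 0.0554 with all 15 expressed, the 5 actins 0.527% ± 0.00988, and tubulins 0.476% ± 0.0409. Proteasome subunits, 32 of 33 expressed, held 0.307% ± 0.0368. Their most abundant member was pbs-1, a subunit of the catalytic core, at 395, 333 and 426 TPM.

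The cell-cycle and structural lists held members of widely different levels. Expressed cyclins had a median of 56.6 TPM, MCM helicase genes of 95.6 TPM and expressed col family collagens of 13.497 TPM, against 21.1 TPM for all expressed genes. The B-type cyclin gene cyb-3 had 1422, 1165 and 1643 TPM, with replicate 2 the lowest. The most abundant tubulin gene, tbb-2, averaged 1746 ± 117 TPM and the most abundant actin gene, act-4, 2267 ± 143 TPM (SD, n = 3 each). All 8 genes of the MCM replicative helicase were expressed, and mcm-7 averaged 255 ± 21.6 TPM. The gene cpg-8, from the list of chondroitin and eggshell proteins, averaged 1652 ± 93.6 TPM. Among 158 col family collagens 80 were expressed (50.6%), below the 58.7% of all genes. They were led by col-74 at 1133, 1193 and 1308 TPM and col-165 at 1039, 1092 and 1171 TPM, both highest in replicate 3.

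The large environmental and sensory families differed in how many members were expressed, set against 58.7% of all genes. Of 1143 chemoreceptor genes of the sr families 15 were expressed, and 1128 were below 1 TPM in at least 1 library. The most abundant was srr-4 at 26.3, 27.8 and 19.1 TPM. C-type lectins, with 41 of 255 expressed (16.08%), and cytochrome P450 genes, with 20 of 75 (26.7%), also lay below that share. F-box genes, with 176 of 356 (49.4%), and nuclear hormone receptors, with 156 of 278 (56.1%), were nearer to it, and neuropeptide and insulin genes, with 104 of 141 (73.8%), lay above it. Of the homeobox ceh genes 49 of 64 were expressed (76.6%), led by ceh-20 at 175 ± 11.6 TPM (SD, n = 3). Reads on sr genes again set replicate 1 apart: they came to 451 CPM (reads scaled to a total that is the same for every library, with no length correction) in replicate 1, 183 CPM in replicate 2 and 156 CPM in replicate 3.

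**Figure D2:**
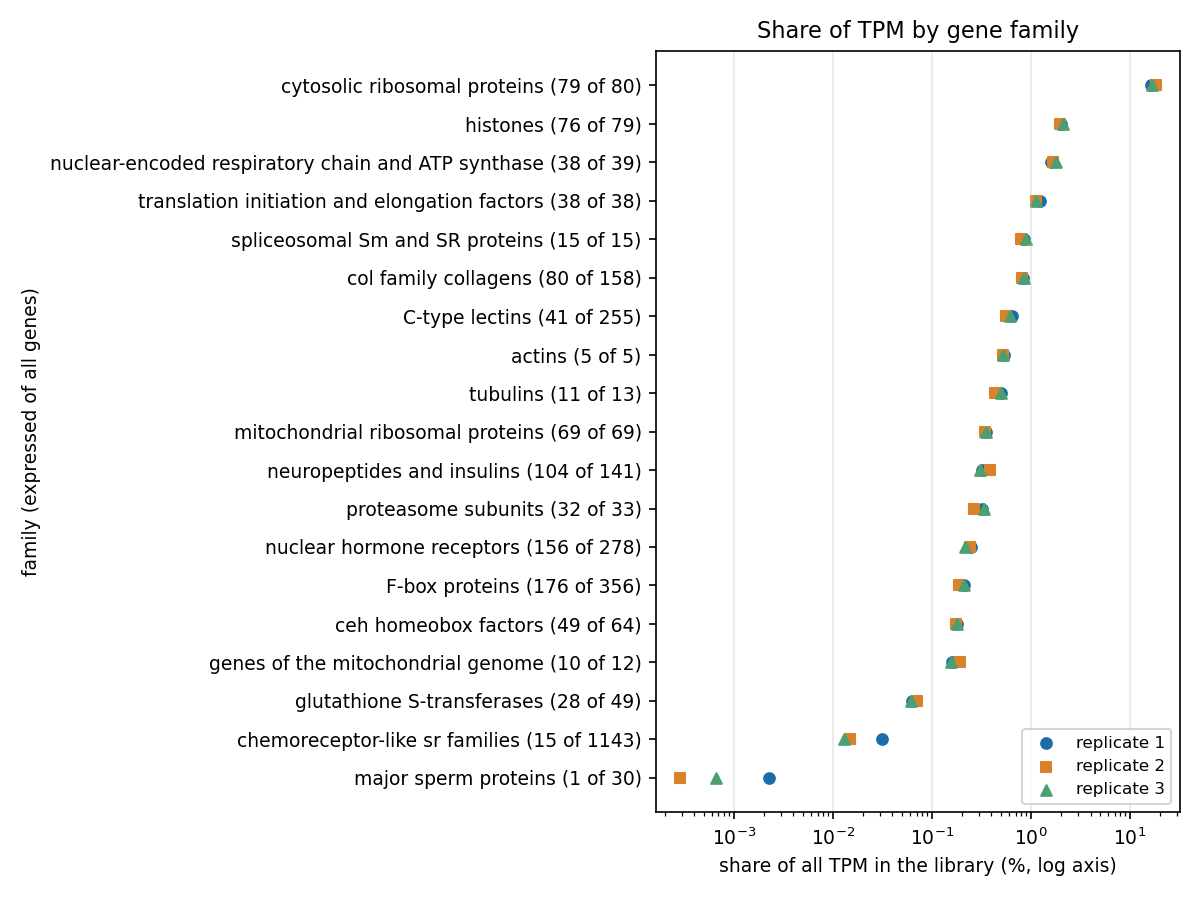
Share of all TPM held by each gene family in each library (log axis), with the number of expressed genes and of all genes in brackets. Cytosolic ribosomal protein genes hold 16.39% to 18.3%, and the libraries differ visibly in the sr families and in major sperm proteins, both highest in replicate 1.

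Every list of early, middle and late embryo markers had expressed members. Of 23 genes of the oocyte and early embryo 21 were expressed, among them pos-1, a zinc finger regulator of maternal mRNAs, at 376, 245 and 404 TPM. The transcription factor gene skn-1, which specifies endoderm and mesoderm precursors, had 151, 139.9 and 153 TPM. In bulk embryos, more embryos of one age and more mRNA per embryo cannot be told apart. Of the 9 early zygotic genes found 5 were expressed (55.6%), close to the 58.7% of all genes. The endoderm gene end-1 had 19.2, 15.5 and 21.5 TPM, while med-1 reached at most 0.787 TPM. All 11 genes of tissue specification were expressed, led by pha-4, the pharynx organ identity factor, at 186, 180.0 and 164 TPM. The muscle factor gene hlh-1 had 58.8 ± 3.75 TPM (SD, n = 3) with no read in the counts.

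Genes of late embryonic differentiation were all 12 expressed. Body muscle myosin unc-54 had 218, 207 and 162 TPM, the pharyngeal myosin myo-2 had 26.3, 26.7 and 22.7 TPM, and the hypodermal protein noah-1 had 348, 334 and 253 TPM. Each was lowest in replicate 3. Of 19 genes of glycolysis 18 were expressed. Aldolase aldo-2 led them at 745, 681 and 622 TPM.

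Markers of adult tissue were near the floor. Of 28 major sperm protein markers 1 was expressed, msp-76 at 1.70, 1.03 and 1.62 TPM, and the list summed to 21.7 TPM in replicate 1, 2.83 in replicate 2 and 6.35 in replicate 3. The 6 yolk protein genes, products of the adult intestine, summed to 2.83, 0.770 and 0.636 TPM and none was expressed. Adult cuticle collagens summed to 5.08, 2.49 and 1.65 TPM with none of 6 expressed. All 3 sums were highest in replicate 1, and their part in the wider detection of genes in that library was not tested.

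Heat-inducible chaperone genes were present in every library and differed between them. All 9 were expressed, and their sum was 1661, 1686 and 3103 TPM in replicates 1 to 3. The gene hsp-16.2, for a small heat shock protein, had 98.0, 94.3 and 194 TPM, or 50.1, 50.4 and 105 CPM. Its neighbour in sequence, hsp-16.41, had 196, 190.1 and 324 TPM. hsp-70 had 28.8, 21.997 and 51.7 TPM, and the related gene F44E5.5 had 197, 182 and 386 TPM. Replicate 3 was the highest for all 9 genes, against 28.2% of all expressed genes. In 6 of the 9 the highest library was at least 2 times the lowest, a spread seen in 4.89% of all expressed genes. The duplicated hsp-16 genes are near-identical copies, and T27E4.8 (hsp-16.1) had 282, 304 and 594 TPM with at most 1 read counted in any library, so their split between copies is uncertain. In CPM, the 5 genes with at least 10 reads in each library were all highest in replicate 3, against 34.2% of 12818 genes. Replicate 3 also had the highest sums of the oocyte list, and whether embryo age bears on the chaperone values was not tested.

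Expressed genes were spread unevenly over the chromosomes. Chromosome III had the largest share expressed in every library, 1970 of 2684 genes (73.4%), followed by I with 2019 of 2904 (69.5%). The X chromosome had 1805 of 2818 (64.1%), chromosome II 2132 of 3529 (60.4%) and chromosome IV 1897 of 3321 (57.1%). Chromosome V had the smallest share, 2142 of 5120 (41.8%). Per library the means were 75.99% ± 1.36 on III and 45.1% ± 1.58 on V (SD, n = 3 each), so that gap is far larger than the spread between libraries. The order of the chromosomes was the same in all 3 libraries. Between II, at 63.5% ± 1.54, and IV, at 60.1% ± 1.41, the gap is small, though II was above IV in each library.

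Compared with the pooled autosomes, the X chromosome had more of its genes expressed but at lower levels. The share of genes with at least 1 TPM was 69.5%, 67.2% and 66.2% on X and 62.2%, 60.5% and 59.5% on the autosomes in replicates 1 to 3. The difference was 6.91 percentage points ± 0.385 (SD, n = 3), higher on X in 3 of 3 libraries. An exact two-sided sign-flip permutation test over the 3 libraries gave p = 0.25, the smallest p that 3 libraries allow. The median log2 TPM of expressed genes was 4.03, 4.05 and 3.95 on X and 4.51, 4.41 and 4.45 on the autosomes. That difference was -0.44 ± 0.0739, lower on X in 3 of 3 libraries, again with p = 0.25 by the exact permutation test. X held 10.7%, 10.97% and 10.2% of TPM and 10 of the 100 most abundant genes, with 1805 of the 11975 expressed genes. The 100 most abundant took in 0.554% of the expressed genes of X and 0.886% of those of the autosomes.

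The difference in expressed genes turned on chromosome V. Set against autosomes I to IV alone, the share on X was 0.448 percentage points higher, while the difference in median log2 TPM was -0.58. Against V alone the median log2 TPM of X was 0.15 higher, and V at 3.86 ± 0.0432 was the chromosome with the lowest median. Chromosomes I and III, at 4.84 ± 0.0593 and 4.72 ± 0.0568, had the highest medians. The sr, F-box, C-type lectin and nuclear hormone receptor families made up 77 genes (2.73%) on X and 1113 genes (21.7%) on V, which carried 757 of the 1143 sr genes. Without the 4 families the share expressed in every library was 64.9% on X, 62.8% on the autosomes and 49.8% on V, and the per-library difference of X and autosomes was 2.73 percentage points. These comparisons were chosen after the values were seen. Of the 80 cytosolic ribosomal protein genes 2 lay on X, which carried 2818 of all 20388 genes. Leaving the family out changed the median difference little, to -0.43.

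With each chromosome cut into 3 equal lengths, the middle stretch of V had the larger share of expressed genes, 53.1%, while the left stretch had 38.8% and the right stretch 32.7%. On II the left stretch was lowest, with 49.2% against 66.3% in the middle and 68.2% at the right. The X chromosome was flatter, at 67.4%, 64.5% and 60.2% from left to right. The most abundant genes of the chromosomes were his-24 on X, dpy-14 on I, aqp-2 on II, rps-29 on III, rpl-29 on IV and C02E7.6 on V.

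**Figure D3:**
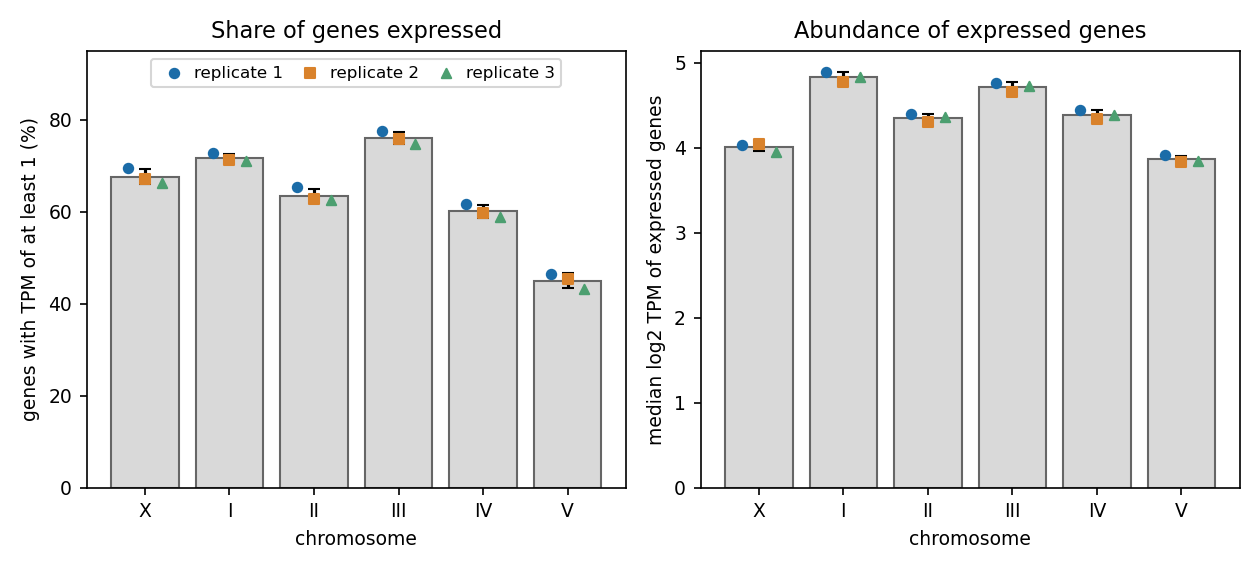
Left, percent of genes with at least 1 TPM on each chromosome; right, median log2 TPM of the genes expressed in every library. Bars are means of the 3 replicates, error bars are SD, and points are replicates: X lies below III and I and above II, IV and V on the left, and only V lies lower on the right.

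Replicates differed by a median coefficient of variation (CV, the SD over the mean) of 11.1% across expressed genes, with quartiles of 6.82% and 17.3%. The median ratio of highest to lowest library was 1.24. The spread narrowed with abundance, with median CVs of 17.2% for genes of 1 to 10 mean TPM, 9.71% for 10 to 100, 7.90% for 100 to 1000 and 7.28% above. Counting error alone would give 10.5%, 3.51%, 1.63% and 0.879% in the same classes, so the observed spread was larger than counting noise in each. The biological coefficient of variation estimated by edgeR from the counts was 0.132 over 12818 genes, with a median of 0.208 in the genes of lowest abundance and 0.0951 in those of highest.

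In 586 of 11975 expressed genes (4.89%) the highest library was at least 2 times the lowest. The share was 11.7% for genes of 1 to 10 TPM and 1.83%, 1.51% and 0.613% in the higher classes. The number rests on every library: it was 402 without replicate 1, 249 without replicate 2 and 234 without replicate 3, where 2 libraries in place of 3 give fewer chances of a wide ratio. Replicate 1 was the highest library in 41.5% of expressed genes, replicate 2 in 30.3% and replicate 3 in 28.2%. The lowest library was replicate 1 in 15.4%, replicate 2 in 40.3% and replicate 3 in 44.3%. On CPM the split was more even, with replicate 2 highest in 33.8% of 12818 genes, replicate 3 in 34.2% and replicate 1 in the rest. Replicates 1 to 3 were lowest in 22.1%, 36.8% and 41.2%. Among chromosomes I to V and X the share of genes with such a spread was largest on V, 177 genes (8.26%). It was smallest on I, 58 genes (2.87%), with 85 genes (4.71%) on X. Of these chromosomes V also had the lowest median log2 TPM (3.86) and I the highest (4.84), and whether abundance bears on the shares was not tested.

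**Figure D4:**
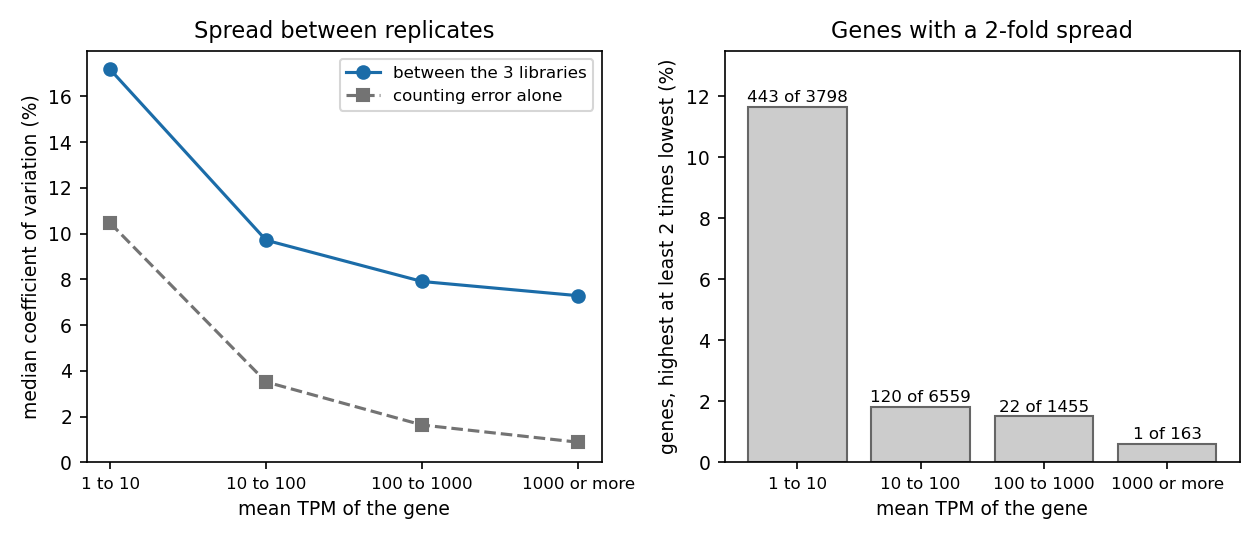
Left, median CV between the 3 libraries and the CV that counting error alone would give, by mean TPM; right, percent of genes in each class with a highest library at least 2 times the lowest, with the numbers above the bars. The observed CV falls from 17.2% to 7.28% over the classes and stays above counting error, and 443 of the 586 genes with a wide ratio lie in the lowest class.

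The spread was shared by genes of one function. Of the 21 expressed genes of the oocyte and early embryo list, 20 were highest in replicate 3 and 21 were lowest in replicate 2, against 28.2% and 40.3% of all expressed genes. The list summed to 1647, 1102 and 1874 TPM. The germline RNA-binding gene gld-1 had 72.8, 39.2 and 77.7 TPM, and the maternal regulator spn-4 had 145, 91.6 and 183 TPM. P granule genes moved alike, with all 8 highest in replicate 3 and lowest in replicate 2, among them pgl-1 at 19.9, 15.6 and 27.7 TPM. Proteasome subunits were lowest in replicate 2 in 31 of 32 genes and summed to 3214, 2655 and 3349 TPM. Cyclins were lowest in replicate 2 in 10 of 13, MCM helicase genes in 7 of 8 and splicing proteins in 15 of 15.

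Other lists ran the opposite way. Late differentiation genes were lowest in replicate 3 in 11 of 12, against 44.3% of all expressed genes, and summed to 7849, 8200 and 6866 TPM. Neuropeptide and insulin genes were highest in replicate 2 in 52 of 104, against 30.3%, with sums of 3241, 3850.0 and 3094 TPM. The ribosomal protein genes were highest in replicate 2 in 69 of 79. Their ratios were small, and none of the 79 had a 2-fold spread. Tissue specification genes summed to 923, 914 and 884 TPM and mitochondrial ribosomal proteins to 3516, 3459 and 3492 TPM, so these differed little between libraries. The same libraries stood out on CPM, among genes with at least 10 reads in each. Replicate 2 was lowest in 21 of 21 oocyte genes and 32 of 33 proteasome genes, against 36.8% of 12818 genes. It was also lowest in 11 of 13 cyclins, 7 of 8 MCM genes and 11 of 14 splicing proteins, the last fewer than in TPM. Replicate 3 was lowest in 11 of 12 late differentiation genes, against 41.2%. Replicate 2 was highest in 50 of 94 neuropeptide and insulin genes and 64 of 78 ribosomal protein genes, against 33.8%.

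**Figure D5:**
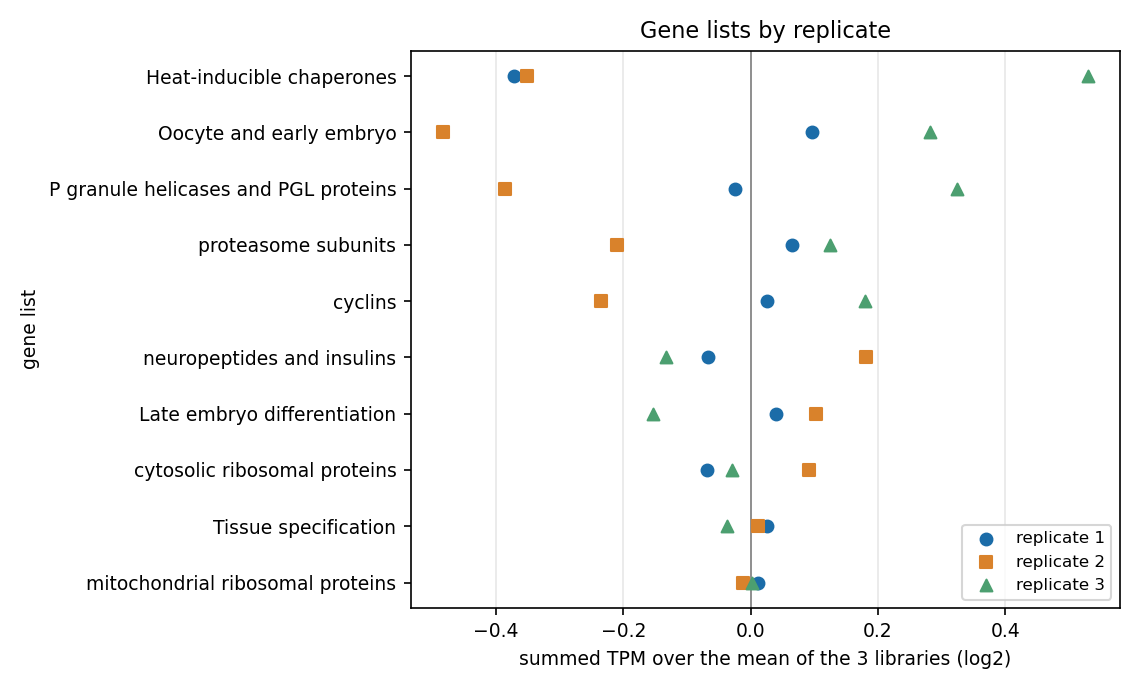
Summed TPM of 10 gene lists in each replicate, as log2 of the ratio to the mean of the 3 libraries. Replicate 3 is highest for the chaperone and oocyte lists, replicate 2 is lowest for the oocyte, P granule, proteasome and cyclin lists, and mitochondrial ribosomal proteins lie together near 0.

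Histone genes had a wide spread. Of the 76 expressed, 47 had a highest library at least 2 times the lowest, against 4.89% of all expressed genes. In TPM 60 were highest in replicate 3, against 28.2% of all expressed genes. Some copies, such as H02I12.7 and F54E12.5, carry the same deposited values, so these counts include repeated values. No histone gene with a mean of 1000 TPM or more had such a spread: his-24 had a ratio of 1.06, htz-1 (histone H2A.Z) of 1.18 and his-72 of 1.22. Most core histone genes are near-identical copies, and 27 of the expressed histone genes had no read in the counts, so their single values are uncertain. Of the 35 histone genes with at least 10 reads in every library, 21 were highest in replicate 3 in CPM, against 34.2% of 12818 genes. Of the same 35 genes, 11 had a 2-fold spread in CPM, set against 5.80% of 12818 genes. Among these his-74 had 252, 182 and 388 TPM.

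Among the 3279 genes with a mean of 50 TPM or more, 34 (1.04%) had a 2-fold spread. The widest ratio belonged to mtl-1, a metallothionein gene, with 34.3, 419 and 23.1 TPM in replicates 1 to 3, an 18.2-fold range. Its reads numbered 127, 1106 and 84. F55B12.10 followed with 29.2, 129 and 24.8 TPM. Both stood high in replicate 2 alone. The lipid-binding protein gene far-3 had 190.4, 152.5 and 47.4 TPM, and the asparagine synthetase gene asns-2 had 197, 226 and 78.1 TPM. The transthyretin-like gene ttr-15 had 50.8, 89.9 and 27.9 TPM. These 3 were lowest in replicate 3.

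Some abundant genes stood high in replicate 3 or low in another library. The poly(A) polymerase family gene tent-5 had 65.8, 49.02 and 159 TPM, and R107.5 had 99.3, 96.2 and 293 TPM, both highest in replicate 3 in TPM and in CPM. Y48G8AL.12 was lowest in replicate 1 at 59.3 TPM, with 172 and 189 TPM in the other libraries, from 82, 168 and 250 reads. Its mean was 140 TPM deposited and 34.6 TPM recomputed, and it overlaps herc-1 on the opposite strand by 489 bases, so its level is uncertain. The meiotic gene him-5 had 211, 77.8 and 176 TPM but only 72, 42 and 109 reads, and R03G5.6 had 66.0, 80.4 and 28.1 TPM with no read, so these 2 rest on the deposited TPM.

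The steadiest abundant genes varied by less than 1% in deposited TPM. Y92H12BL.5 had 51.4, 51.5 and 51.6 TPM, bris-1 had 68.7, 68.4 and 68.6 TPM, and the C-type lectin gene clec-196 had 596, 594 and 593 TPM. The complex I subunit gene nuo-6 had 149, 149 and 148 TPM and the planar polarity gene vang-1 had 57.9, 58.3 and 57.9 TPM. The others of the 10 with the smallest ratios were spop-1, gid-8, ZK1073.1, ile-2 and the neuroblast factor gene hlh-14. On CPM some of them were less even: ZK1073.1 had 87.1, 91.4 and 97.4 CPM and Y92H12BL.5 had 30.9, 32.6 and 33.6 CPM. Others stayed close, such as hlh-14 at 35.2, 35.5 and 35.6 CPM. As these genes were picked as the smallest of 3279 ratios, their values describe these 3 libraries and this measure.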

How the data were processed

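Polyadenylated RNA of mixed embryos was sequenced, and the 3 wild-type libraries of 9 were used. The submitters' processing notes name CASAVA 1.8, Cufflinks 2.2.0, HTSeq 0.6.1p1 and DESeq2. Alignment to WS220 with Tophat is described for a different strain of the study. How the counting treated strand is not given in the sources used here, so reads of a gene and of an overlapping gene on the opposite strand may not be separable. The authors deposited whole-number read counts for 20389 genes, without normalization, in a file per library and in a merged table that were identical. The authors also deposited TPM, which are length-corrected shares of each library, for 20388 genes, after summing here the values of 2 sequence names listed at 2 loci each. A pair of deposited tables holds the authors' strain comparisons (fold changes and p-values) and was not used. No column of per-sample values was left unmapped (0).

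Rows that name no gene held 55.2% to 58.2% of listed reads and were left out of library sizes. Expression was called at 1 TPM in every library, and no other filter or pseudocount entered the main values. Spread was the ratio of highest to lowest TPM. Counting error was taken from the square root of the counts, PCR copies included, so it covers counting error only. The biological coefficient of variation came from edgeR 4.0.16 with TMM factors (limma 3.58.1, R 4.3.3) on the genes whose counts reached 10 in each library. The estimate of the biological coefficient of variation and the 2-fold rule were each run on simulated counts. For the 2-fold rule these were scaled to CPM, so the simulation does not cover deposited TPM. X and autosomes were compared by library with an exact sign-flip permutation test. WormBase identifiers, strand and exon length of 19898 genes came from the WBcel235 annotation, and positions are those of the deposited table on WS220, with starts counted from 1. Python 3.11.15, numpy 2.4.6, pandas 2.3.3 and matplotlib 3.10.9 were used.

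Genes are named by rule: the 25 with the highest mean TPM, the top gene of each chromosome, the top 3 of each family or marker list, the 10 largest and 10 smallest ratios among genes of at least 50 mean TPM, and up to 5 of the 100 most abundant genes at which deposited and recomputed TPM differ most. Further members of the chaperone, stage and family lists, and genes of the closing section, were picked after their values were seen. The family, list and member choices were made with earlier results of these data known. The sr family list was corrected during the work: serpins, kinases and other genes that share the prefix were taken out. Alternatives were other TPM minimums, a minimum on the mean, a count minimum, recomputed TPM, CPM with TMM or RLE factors, pseudocounts, and each replicate left out.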

Additional observations from a re-analysis of the deposited data

Results flagged for a closer look

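More reads lay outside the gene table than on it in each library. Reads on no annotated feature made up 46.5%, 46.6% and 45.7% of all listed reads in replicates 1 to 3, a mean of 46.3% ± 0.492 (SD, n = 3). Reads not aligned to 1 place made up 8.94%, 8.23% and 12.1%, a mean of 9.76% ± 2.07, with replicate 3 the highest. Both kinds were left out of every comparison, and each is listed here as a signal in reads that no comparison uses. Of the 76 expressed histone genes, which include near-identical copies, 27 had TPM in the deposited table and no read in the counts. The part of either class of reads in any gene's value was not tested.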

How the results depend on the processing

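Recomputing the 7 main results under the alternatives gave 64 values in all, of which 15 moved and 1 changed sign. The other 48 kept their sign, for the 2 differences of X and autosomes, or stayed within 1.5 times, for counts. Shares among them moved by less than the SD between replicates, and CVs by less than the SD between pairs of replicates. With a replicate left out, a mean share could hardly move that far, and the difference in share expressed could not change sign, so those settings test little. No paired analysis was possible because only wild type is described and no groups are compared. The number of genes with a 2-fold spread was 913 at a minimum of 0.5 TPM, 159 at 5 TPM, 926 with the minimum on the mean, 935 with at least 10 counts in every library, 3614 with no filter and 319 with a pseudocount of 1, against 586. Leaving out a replicate gave 234 to 402 such genes and a median CV of 8.17% to 11.0142%, and with no filter the CV was 19.3%. Fewer libraries or more low genes enter these values by construction. The 100 most abundant genes held 23.8% of TPM recomputed from counts and 18.1% of CPM, and ribosomal protein genes 11.7% and 4.52%. CPM does not correct for length, and for recomputed TPM the cause was not tested. The difference in median log2 TPM of X and autosomes turned to 0.15 when V alone stood for the autosomes, an alternative added after the data were seen. It kept its sign in the other settings. The difference in share expressed was positive in all settings run, but it was 1.96 percentage points with 5 TPM, 2.73 without 4 large families and 0.448 against autosomes I to IV, against 6.91 ± 0.385. Of 148 named genes, 62 had recomputed TPM more than 1.5 times above or below the deposited value, 30 of them above.

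Depth limits the low end. With 17107945 to 23536013 reads on genes, genes at 1 to 10 TPM had a median of 89.0 reads, so a ratio of 2 there is less certain than among abundant genes. Genes with 3 reads or fewer numbered 1790 in replicate 1, 5706 in replicate 2 and 5574 in replicate 3. Expression was called on TPM alone, and 110 expressed genes had no read in the counts. With 3 libraries the exact test cannot go below p = 0.25.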

Other observations

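Some genes outside the lists above stood high in 1 library. The genes below are a few examples picked after their values were seen, from 8183 genes with a mean of at least 10 TPM, and are described without a test. Replicate 2 was above both other libraries by at least 1.5 times in 59 genes, replicate 3 in 72 and replicate 1 in 15. The small heat shock protein gene hsp-12.6 had 130.5 TPM in replicate 2, with 4.50 in replicate 1 and 1.95 in replicate 3, from 564, 32 and 17 reads. The superoxide dismutase gene sod-5 had 40.8 TPM in replicate 2, with 13.8 and 4.81 in replicates 1 and 3. F08H9.4 had 80.8 TPM in replicate 2, with 4.92 and 0.827 in the others, and C54F6.15 had 105.0 TPM there, with 4.68 and 0.787. With mtl-1, these genes were all lowest in replicate 3, and stood above both other libraries by at least 1.5 times in replicate 2. The sum of the 9 heat-inducible chaperone genes was 1686 TPM in that library, close to the 1661 TPM of replicate 1 and below the 3103 TPM of replicate 3.

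Some genes were low in 1 library. Replicate 2 was below both others by at least 1.5 times in 97 genes, replicate 3 in 71 and replicate 1 in 13. The small heat shock protein gene sip-1, known as an embryonic chaperone, had 2723 TPM in replicate 1, 1328 in replicate 2 and 2925 in replicate 3, and is the 1 gene above 1000 TPM with a 2-fold spread. The eggshell proteoglycan gene cpg-2 had 22.2, 10.2 and 36.9 TPM in replicates 1 to 3. ogdh-2 had 35.4, 35.4 and 4.72 TPM, from 2359, 1794 and 324 reads, and so was low in replicate 3 alone.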
